A study of Mus musculus with 18 samples.

Results

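The Sertoli cell products described here are 9 genes, Shbg, Clu, Amh, Gdnf, Lgals1, Hopx, Plat, Krt18 and Aard, measured in the testis of the hypogonadal (hpg) mouse with and without injected follicle-stimulating hormone (FSH). They were taken by symbol, as every probe set annotated with exactly 1 gene symbol that is one of these 9. This gave 14 probe sets of 22626 tested, and the 9 genes were 9 of 12393 genes with such a probe set. Clu had 4 probe sets, Lgals1 and Hopx had 2 each, and the other 6 genes had 1.

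The hpg mouse carries a deletion in the gene for gonadotrophin-releasing hormone, so that its pituitary secretes little FSH or luteinising hormone and its testis stays small and infertile. All 18 mice were adult hpg males aged 10 weeks, and each gave 1 Affymetrix MOE430A array of whole-testis RNA. Of these, 4 mice received recombinant FSH (rFSH, Gonal F) for 12 h, 3 for 24 h and 4 for 72 h, as subcutaneous injections of 8 IU in 0.2 ml of PBS repeated each 12 h, with the testes collected 1 h after the last. The other 7 mice were untreated, and the labels name no injection of PBS alone for them, so that FSH and the injection itself cannot be told apart.

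Sertoli cells are the somatic cells of the seminiferous tubule that enclose and feed the germ cells, and in the testis they are the cells that carry the FSH receptor. The receptor acts mainly through cyclic AMP and protein kinase A. The 9 genes cover several Sertoli cell roles: carrier and chaperone proteins of the tubule fluid (Shbg, Clu), signals to other cells (Amh, Gdnf, Lgals1), a protease of the tubule (Plat), and nuclear, cytoskeletal or less well understood marker proteins (Hopx, Krt18, Aard).

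Values are the log2 signals that the authors deposited, and a difference of 1 is a doubling of signal. The arrays fell into 2 sets by the bacterial Dap control transcript that is added to a labelling reaction: the 12 h, 72 h and untreated 4 to 7 arrays (12 arrays) had Dap signals of 8.05 to 8.86, and the 24 h and untreated 1 to 3 arrays (6 arrays) had 2.70 to 3.41. The 12 h and 72 h groups were therefore compared with untreated mice 4 to 7 and the 24 h group with untreated mice 1 to 3. The sets differed in other array controls too. The 18S ribosomal RNA probe sets had signals of 3.35 to 3.70 in the first set and 9.07 to 11.7 in the second. The gap between the 3' and 5' actin probe sets was 1.22 to 1.82 and 0.82 to 1.10. The part of these differences in the 24 h results, and in contrasts of 24 h with other times, was not tested. Array medians lay between 4.44 and 4.63. Untreated mouse 6 stood apart in spermatid transcripts, with Prm1 at 12.0 and Tnp1 at 11.7 where the other 17 arrays had at most 3.85 and 4.49. Among the called changes of the 9 genes, leaving out this array ended 2, given with their values below, and the others kept their side of the threshold.

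As a description, 32 Sertoli cell identity and maturation genes were looked at, of which 26 were measured. Their signals in whole testis cannot show which cells gave the signals of the 9 genes. Sox9, the transcription factor that sets Sertoli cell fate, lay between 7.86 and 9.72 over the 18 arrays. Wt1, a zinc finger factor needed for Sertoli cell identity, lay between 7.94 and 9.25, and the tight junction gene Cldn11 between 9.21 and 10.6. The median over all probe sets was 4.54. Of the 26, 5 were dim, among them Krt19, which was at the floor. A probe set is called at the floor where it lay under the lower quartile of its array on each of the 18 arrays, and dim where its mean over all arrays was under the median over probe sets. In the 9 genes, Amh was at the floor, and Amh, Gdnf and Krt18 were dim.

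A call was an adjusted p below 0.05 in limma, with Benjamini-Hochberg adjustment over all 22626 probe sets. Counted by the brightest probe set of each gene, 3 of the 9 genes were called higher and 0 lower at 12 h, against 3.52% of all genes called higher and 2.76% called lower. At 24 h, 3 were called higher and 0 lower, against 6.38% and 8.45% of all genes. These 24 h shares rest on single arrays: over all 22626 probe sets, 1381 were called higher and 1642 lower, which became 672 and 1006 without untreated mouse 1, 853 and 1206 without the 24 h mouse 2, 2076 and 1772 without the 24 h mouse 1, and 2687 and 2140 with the replicate number of these 6 arrays as a block. At 72 h, 3 were called higher and 1 lower, against 4.23% and 3.03%. Lgals1 and Hopx were called higher at all 3 times, Shbg at 24 and 72 h, and Aard at 12 h, whereas Gdnf was called lower at 72 h. The 0 lower at 12 and 24 h depends on the choice of the brightest probe set. Of the 14 probe sets, 3 were called lower at 12 h and 2 at 24 h, all of them other probe sets of Clu. Averaged over its probe sets, Clu was called lower at both times. Without adjustment, 2 genes (Shbg and Gdnf) were lower at 12 h and 1 (Clu) at 24 h at p below 0.05. For 12, 24 and 72 h in turn, the 9 genes had median log2 changes of 0.12, 0.01 and 0.11, and all genes had medians of -0.0048, 0.04 and 0.01. Testis is a mixture of cells, so that a change in the number of Sertoli cells relative to the rest and a change in RNA per Sertoli cell cannot be told apart.

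**Figure D1:**
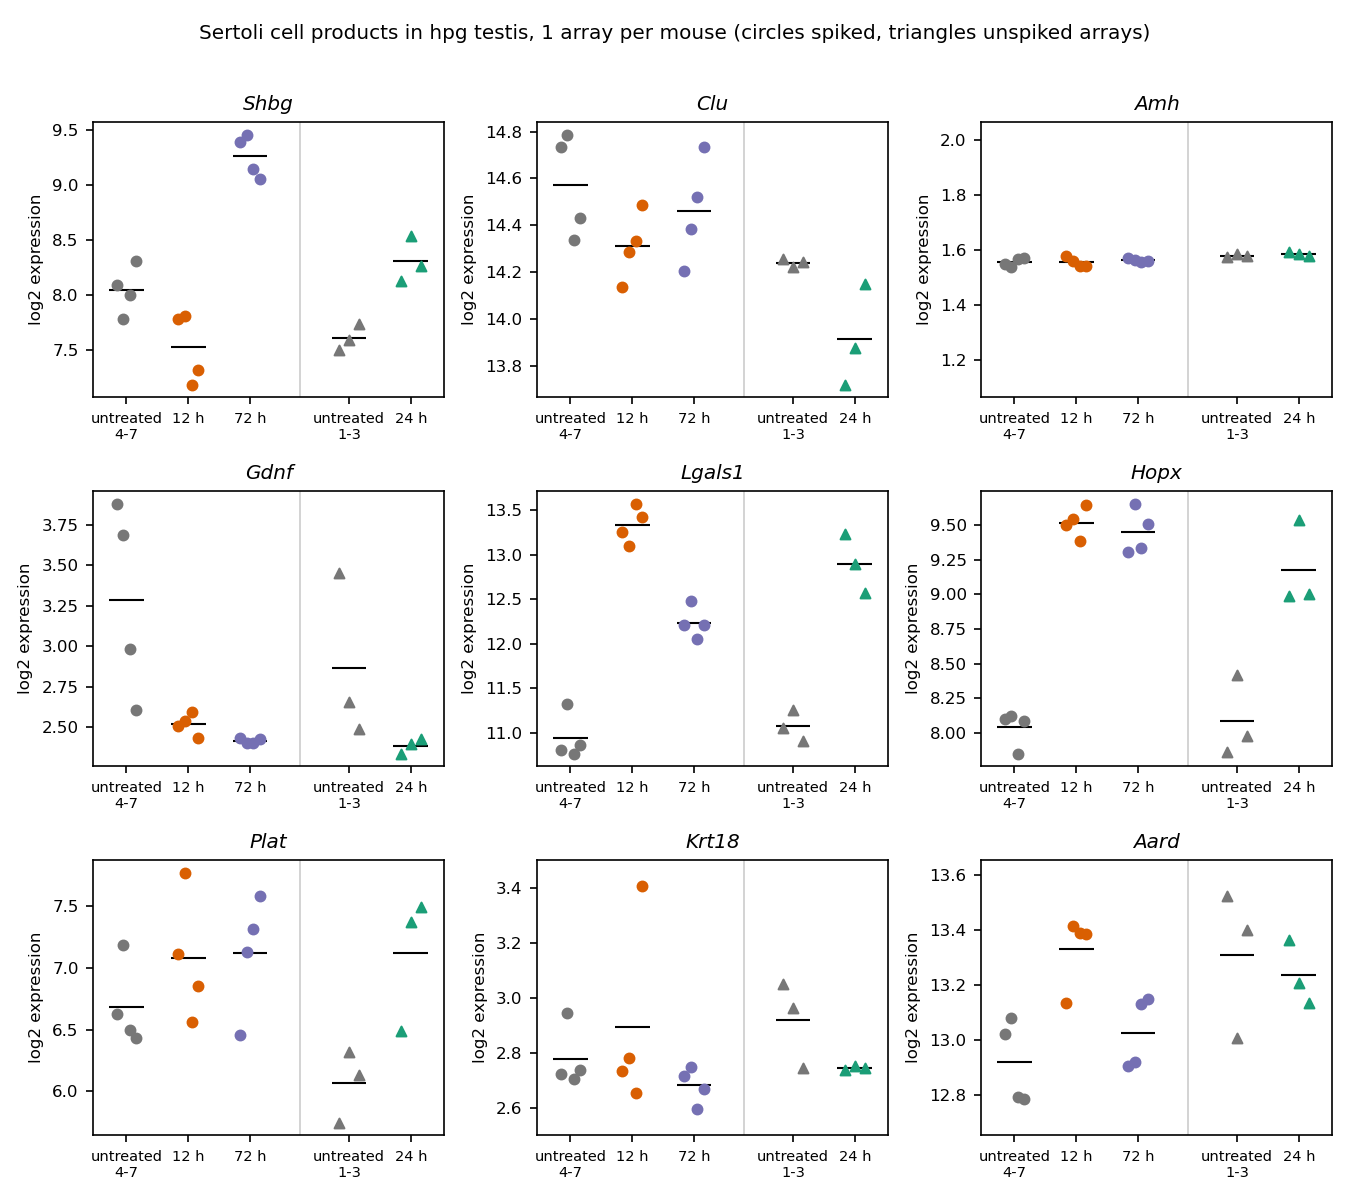
Log2 signal of the brightest probe set of each of the 9 genes on every array, with untreated mice 4 to 7, 12 h and 72 h on the left of each panel and untreated mice 1 to 3 and 24 h on the right. Points are mice and black lines are group means. Every Lgals1 and Hopx value of a treated mouse lies above those of the untreated mice of its set. On the left of its panel, the Shbg group mean is lowest at 12 h, with values that overlap the untreated ones, and highest at 72 h.

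Shbg encodes androgen-binding protein, the carrier that Sertoli cells secrete into the tubule fluid and that holds androgen there. Its promoter is printed because Shbg, Gdnf and Hopx were the genes called at some time for which RefSeq promoter windows (mouse build GRCm38.p6) could be matched. Krt18 also matched, so that 4 of the 9 genes had 6 windows in all, and Clu, Amh, Lgals1, Plat and Aard had no entry that matched. The windows ran from 250 bases before to 50 bases after the annotated start, and the 250 bases before it are printed. Motifs searched on both strands were the cyclic AMP response element TGACGTCA, its core TGACG, the nuclear receptor core motif AGGTCA and the E box CANNTG. Of 32851 promoter windows of the same length, 1.79% held the first, 20.8% its core, 16.3% the nuclear receptor motif and 72.3% an E box. Capitals mark the matches.
Shbg promoter, chr11:69617906-69618155, minus strand: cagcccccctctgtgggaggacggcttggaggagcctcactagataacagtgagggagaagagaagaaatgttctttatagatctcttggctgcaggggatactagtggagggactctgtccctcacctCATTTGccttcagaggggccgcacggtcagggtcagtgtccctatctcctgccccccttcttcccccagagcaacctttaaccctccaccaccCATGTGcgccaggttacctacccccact
The matches in the Shbg window were 2 E boxes, CATTTG at 121 and CATGTG at 28 bases before the start, counting their first base.

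In untreated mice 4 to 7, Shbg signals were 8.09, 7.78, 8.00 and 8.31. At 12 h they were 7.79, 7.81, 7.19 and 7.31, and at 72 h 9.39, 9.46, 9.15 and 9.06. The 12 h values reached from below to just above the lowest untreated value, whereas every 72 h value lay above all untreated ones. The 12 h difference was -0.52 ± 0.15 (log2, SE, n = 4 and 4; 95% interval -0.85 to -0.19) with a limma adjusted p of 0.0694, so it was not called. It was called without the 12 h mouse 1 (adjusted p = 0.0483), the 12 h mouse 2 (0.0425) or untreated mouse 5 (0.0467) in the same limma fit. The 72 h difference was 1.22 ± 0.15, a 2.33-fold rise (limma adjusted p = 0.000247, n = 4 and 4).

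In the other array set, untreated mice 1 to 3 had Shbg signals of 7.50, 7.59 and 7.74, and the 24 h mice had 8.13, 8.54 and 8.27. All 24 h values were above all untreated ones. The rise was 0.70 ± 0.18 (SE, n = 3 and 3), or 1.62-fold, with a limma adjusted p of 0.0199. In the fit of these 6 arrays alone it was not called (0.0768). The adjusted p became 0.0808 without the 24 h mouse 2 (0.59) and 0.0772 without untreated mouse 1 (0.65).

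Shbg was the member of the group with a difference between early and late times in the upward direction. From 12 h to 72 h it rose by 1.74 ± 0.15, a 3.35-fold difference (limma adjusted p = 3.96e-05, n = 4 and 4). Counted over the 9 genes, 1 was higher and 1 lower at 72 h than at 12 h, where 2.86% of all genes were called in either direction. The control-adjusted change at 24 h exceeded that at 12 h by 1.22 ± 0.24 (limma adjusted p = 0.0262), which was the 1 call among the 9 genes, against 0.928% of all genes. That call was lost without untreated mouse 6 (1.24, adjusted p = 0.0506) and without any one of 5 other arrays, the 12 h mouse 4, the 24 h mouse 2 and untreated mice 1, 2 and 7, with adjusted p up to 0.0705. Between 24 and 72 h, 0 of the 9 genes were called, against 0.339% of all genes. For Shbg the difference between these times was 0.52 ± 0.24 (95% interval 0.01 to 1.03, limma adjusted p = 0.425), and at p below 0.05 without adjustment Shbg was higher and Lgals1 lower at 72 h than at 24 h.

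Among all 12393 genes, the 3 whose signals followed that of Shbg most closely over the 18 arrays, after subtraction of the untreated mean of the same set, were Tpd52l1 (Pearson r = 0.95), Col4a3 (0.93) and Eppin (0.92). Eppin, a protease inhibitor of the epididymis and testis, was -0.95 ± 0.34 at 12 h (limma adjusted p = 0.155) and rose by 3.16 ± 0.40 at 24 h and 3.11 ± 0.34 at 72 h. These correlations are over arrays that share the untreated means, and are given as a description.

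Clu encodes clusterin, a secreted chaperone that is among the most abundant Sertoli cell secretions. Its brightest probe set, 1437689_x_at, held the highest signal of any tested probe set on any array, 14.79 in untreated mouse 5. Whether signals this high were saturated was not tested. The suffix x marks probe sets in which some probes also match other sequences, and 3 of the 4 Clu probe sets carry it.

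On 1437689_x_at, untreated mice 4 to 7 had 14.73, 14.79, 14.33 and 14.43, the 12 h mice 14.14, 14.28, 14.33 and 14.49, and the 72 h mice 14.21, 14.38, 14.52 and 14.73. Untreated mice 1 to 3 had 14.25, 14.22 and 14.24, and the 24 h mice 13.72, 13.87 and 14.15. The groups overlapped at 12 and 72 h, and at 24 h all values lay below the untreated ones. The differences on this probe set of -0.26 ± 0.13, -0.33 ± 0.15 and -0.11 ± 0.13 at 12, 24 and 72 h were not called (limma adjusted p = 0.359, 0.150 and 0.868).

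The other 3 Clu probe sets had lower adjusted p-values than this one at each time. On 1418626_a_at, untreated mice 4 to 7 had 13.11, 13.32, 13.34 and 13.09 and the 12 h mice 12.62, 12.80, 12.36 and 12.70, while untreated mice 1 to 3 had 13.08, 13.09 and 13.10 and the 24 h mice 12.19, 12.42 and 12.49. No treated value reached an untreated one at these times. The signal fell by 0.60 ± 0.09 at 12 h (limma adjusted p = 0.00122, n = 4 and 4) and by 0.72 ± 0.11 at 24 h (0.000652, n = 3 and 3), a 1.51-fold and a 1.65-fold decrease. At 72 h the mice had 12.85, 12.86, 12.99 and 13.05, all just below the untreated values, and the difference of -0.28 ± 0.09 was not called (0.111). The probe set 1437458_x_at fell by 0.50 at both 12 and 24 h (limma adjusted p = 0.0133 and 0.0188), and 1454849_x_at fell by 0.54 at 12 h (0.0052) with -0.30 at 24 h (0.102). The 4 probe sets thus disagreed on the call at 12 and 24 h, with 3 and 2 of 4 called lower, and all 4 had negative differences at each time. Averaged over its probe sets, Clu was called lower at 12 h (-0.47, limma adjusted p = 0.00621) and 24 h (-0.46, 0.0119). Between pairs of Clu probe sets the signals correlated over the 18 arrays at r = 0.69 to 0.90.

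Receptors that bind clusterin or SHBG were looked at as a list of 5 genes, all measured and 4 of them dim. None was called at any of the 3 times in limma. Without adjustment, 0 of 5 passed p below 0.05 at 12 h, 3 at 24 h and 1 at 72 h.

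Amh encodes anti-Müllerian hormone, which immature Sertoli cells secrete and which makes the Müllerian ducts regress in the male fetus. Its signal lay between 1.54 and 1.60 on all 18 arrays, under the lower quartile of each array (2.51 to 2.79), so the probe set was at the floor. It gave no measure of change: the differences at 24 and 72 h were both 0.01 with SEs of 0.03 and 0.02. A signal at the floor is a bound, and these arrays do not show whether the transcript was there.

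Of 12 genes for receptors of AMH and regulators of Amh, 11 were measured. At 12 h 0 were called, with 2 higher at p below 0.05 without adjustment, at 24 h 1 was called higher and 2 lower, and at 72 h 1 was higher. Amhr2, the type II receptor that binds AMH, was 0.39 higher at 12 h (limma adjusted p = 0.224) and rose by 0.64 at 24 h (0.0332) and by 0.87 at 72 h (0.0038). The genes called lower at 24 h were Bmpr1a, a type I receptor of the same pathway, at -0.70 (0.00782), and its signal transducer Smad1 at -0.67 (0.011).

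Gdnf encodes glial cell line-derived neurotrophic factor, the Sertoli cell signal that keeps spermatogonial stem cells renewing themselves. The window at its upstream start held 1 match each of 3 motifs. These were the cyclic AMP core on the opposite strand (read as CGTCA, 50 to 46 bases before the start), AGGTCA (87 to 82 before) and the E box CACTTG (17 to 12 before). A second Gdnf window, not printed, held 1 E box.
Gdnf promoter, chr15:7809798-7810047, plus strand: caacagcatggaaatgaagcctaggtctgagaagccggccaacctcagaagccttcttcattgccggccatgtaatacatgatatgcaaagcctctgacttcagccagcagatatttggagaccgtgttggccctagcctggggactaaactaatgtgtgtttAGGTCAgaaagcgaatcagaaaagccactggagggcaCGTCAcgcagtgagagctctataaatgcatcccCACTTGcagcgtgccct

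Untreated mice 4 to 7 had Gdnf signals of 3.88, 3.68, 2.98 and 2.60. The 12 h mice had 2.51, 2.54, 2.59 and 2.43 and the 72 h mice 2.43, 2.40, 2.40 and 2.43. Untreated mice 1 to 3 had 3.45, 2.66 and 2.49 and the 24 h mice 2.34, 2.39 and 2.43. Every treated value lay below every untreated value of its set, yet the untreated mice spread widely (SD 0.60 and 0.52) and the treated ones lay close to the lower end of the signal scale (SD 0.02 to 0.07). The lowest untreated values, 2.60 and 2.49, lay close to the highest at 12 h and 24 h, 2.59 and 2.43.

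Gdnf was called lower at 72 h, by 0.87 ± 0.24 or 1.83-fold (limma adjusted p = 0.0440, n = 4 and 4). The call was lost in 14 of the 18 fits that left out 1 array, among them those without untreated mouse 4 (-0.67, adjusted p = 0.131) or untreated mouse 5 (-0.74, 0.124), and in the fit with quantile normalisation (-0.87, 0.058). At 12 h the difference was -0.77 ± 0.24 (95% interval -1.28 to -0.26, adjusted p = 0.0843), which limma called without untreated mouse 1 (-0.77, 0.0457) or untreated mouse 7 (-1.0, 0.0153). At 24 h it was -0.48 ± 0.28 (-1.07 to 0.11, adjusted p = 0.244), and limma called it when all 7 untreated mice were the control without the array set block (-0.72, 0.0340). The signals most like that of Gdnf over the 18 arrays were those of Hoxd10 (r = 0.96), Ptk2b (0.95) and Tmem140 (0.94). Of these, Hoxd10 was not called at any time, Ptk2b was called lower at 12 h, and Tmem140 was called lower at 12 and 72 h.

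Of 12 GDNF receptor genes and GDNF-responsive genes of spermatogonia, 11 were measured, 9 of them dim. The receptors themselves had low signals: Gfra1, the coreceptor, lay between 2.44 and 4.09 and Ret, the signalling subunit, between 3.01 and 4.32. One gene was called, and it was lower at each time. Sall4, a transcription factor of undifferentiated spermatogonia, fell by 0.65 ± 0.12, 1.10 ± 0.14 and 1.03 ± 0.12 at 12, 24 and 72 h (limma adjusted p = 0.0052, 0.000232 and 0.000167). Sall4 is also 1 of 10 spermatogonial markers, of which 1, 5 and 2 were called lower at these times, Sall4 included, and 0 higher, so that the 1 at 12 h is Sall4 itself. Their summed level (log2 of summed signals) was 12.1 to 12.5 in untreated mice 4 to 7, 11.8 to 12.4 at 12 h and 11.8 to 12.2 at 72 h, and 12.2 to 12.4 in untreated mice 1 to 3 against 11.6 to 12.0 at 24 h. The part of germ cell number in the Gdnf and Sall4 values was not tested.

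Lgals1 encodes galectin-1, a secreted lectin that binds sugars on cell surfaces and the extracellular matrix, made by Sertoli cells and by other cells of the testis. Of the 9 genes it had the highest rise at 12 and 24 h. On its brightest probe set, 1455439_a_at, untreated mice 4 to 7 had 10.81, 11.33, 10.77 and 10.86. The 12 h mice had 13.25, 13.10, 13.57 and 13.42 and the 72 h mice 12.21, 12.48, 12.05 and 12.20. All treated values lay above all untreated ones, and all 12 h values above all 72 h ones. The rise was 2.40 ± 0.16 at 12 h, or 5.27-fold (limma adjusted p = 8.04e-07, n = 4 and 4), and 1.30 ± 0.16 at 72 h, or 2.45-fold (0.000189, n = 4 and 4).

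Untreated mice 1 to 3 had Lgals1 signals of 11.06, 11.25 and 10.91 and the 24 h mice 13.23, 12.89 and 12.57. The groups did not overlap, and the rise was 1.83 ± 0.18 or 3.55-fold (limma adjusted p = 2.58e-05, n = 3 and 3). The 72 h level was below the 12 h level by 1.10 ± 0.16 (adjusted p = 0.0020). The 24 h change differed from that at 12 h by -0.57 ± 0.24 (adjusted p = 0.270), and the 72 h change from that at 24 h by -0.53 ± 0.24 (0.427), so neither step was called. The second probe set, 1419573_a_at, rose by 2.60, 2.53 and 1.42 at 12, 24 and 72 h, or 6.06-fold, 5.78-fold and 2.68-fold. Its signals correlated with those of the first at r = 0.98 over 18 arrays. The probe sets differed in the steps between times. On 1419573_a_at the 24 h change differed from that at 12 h by -0.07 ± 0.26 (limma adjusted p = 0.892). The 72 h change there differed from that at 24 h by -1.11 ± 0.26 (0.103), and neither step was called.

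The 3 genes most like Lgals1 over the arrays were Lonp1 (r = 0.95), a mitochondrial protease, Ptgr1 (0.95), a prostaglandin reductase, and Fbxo4 (0.95), an F-box protein. Of 9 other galectins, 8 were measured, 4 of them dim. Lgals7 rose by 1.0 ± 0.20 at 12 h (limma adjusted p = 0.00697) and had differences of 0.23 and 0.19 at 24 and 72 h, which were not called. Its signals were low, at 2.72 to 3.07 in untreated mice 4 to 7 and 3.38 to 4.62 at 12 h. Lgals8 fell by 0.78 at 24 h (0.0206). At 72 h 0 of the 8 were called, with 1 lower at p below 0.05 without adjustment.

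Cells outside the tubule also make galectin-1, and some of their markers moved at the same times. Of 9 peritubular myoid cell markers, 3, 1 and 1 were called higher at 12, 24 and 72 h, and 0 lower. Tpm2, a tropomyosin, rose by 1.01, 0.79 and 0.66 at the 3 times (limma adjusted p = 0.00326, 0.0229 and 0.0425). The summed level of the 9 was 12.0 to 12.7 in untreated mice 4 to 7, 12.7 to 13.1 at 12 h and 12.5 to 12.8 at 72 h, and 12.2 to 12.5 in untreated mice 1 to 3 against 12.5 to 12.8 at 24 h. Of 10 Leydig cell markers, 7 were measured, and 2, 3 and 0 were called higher at 12, 24 and 72 h. Star, which moves cholesterol into mitochondria, rose by 2.53 ± 0.27 at 12 h and 2.50 ± 0.32 at 24 h (limma adjusted p = 5.37e-05 and 0.000176), and Cyp17a1, a steroidogenic enzyme, by 2.86 ± 0.41 and 4.62 ± 0.47 (0.000621 and 3.06e-05). The rise was not general. Group means of Hsd3b1 were 11.5 at 12 h against 11.7 untreated, and 11.4 at 24 h against 11.9. Ptgds was lower at 12 h (3.32 against 3.86) and higher at 24 h (3.82 against 3.51). Nr5a1 was higher at 12 h (7.26 against 6.69) and lower at 24 h (6.38 against 6.80). At each time 0 of the 7 were called lower. The summed Leydig level was 11.4 to 12.7 in untreated mice 4 to 7, 12.3 to 12.8 at 12 h and 11.7 to 12.0 at 72 h, and 11.9 to 12.2 in untreated mice 1 to 3 against 12.5 to 13.0 at 24 h. The part of myoid and Leydig cells in the Lgals1 values was not tested.

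**Figure D2:**
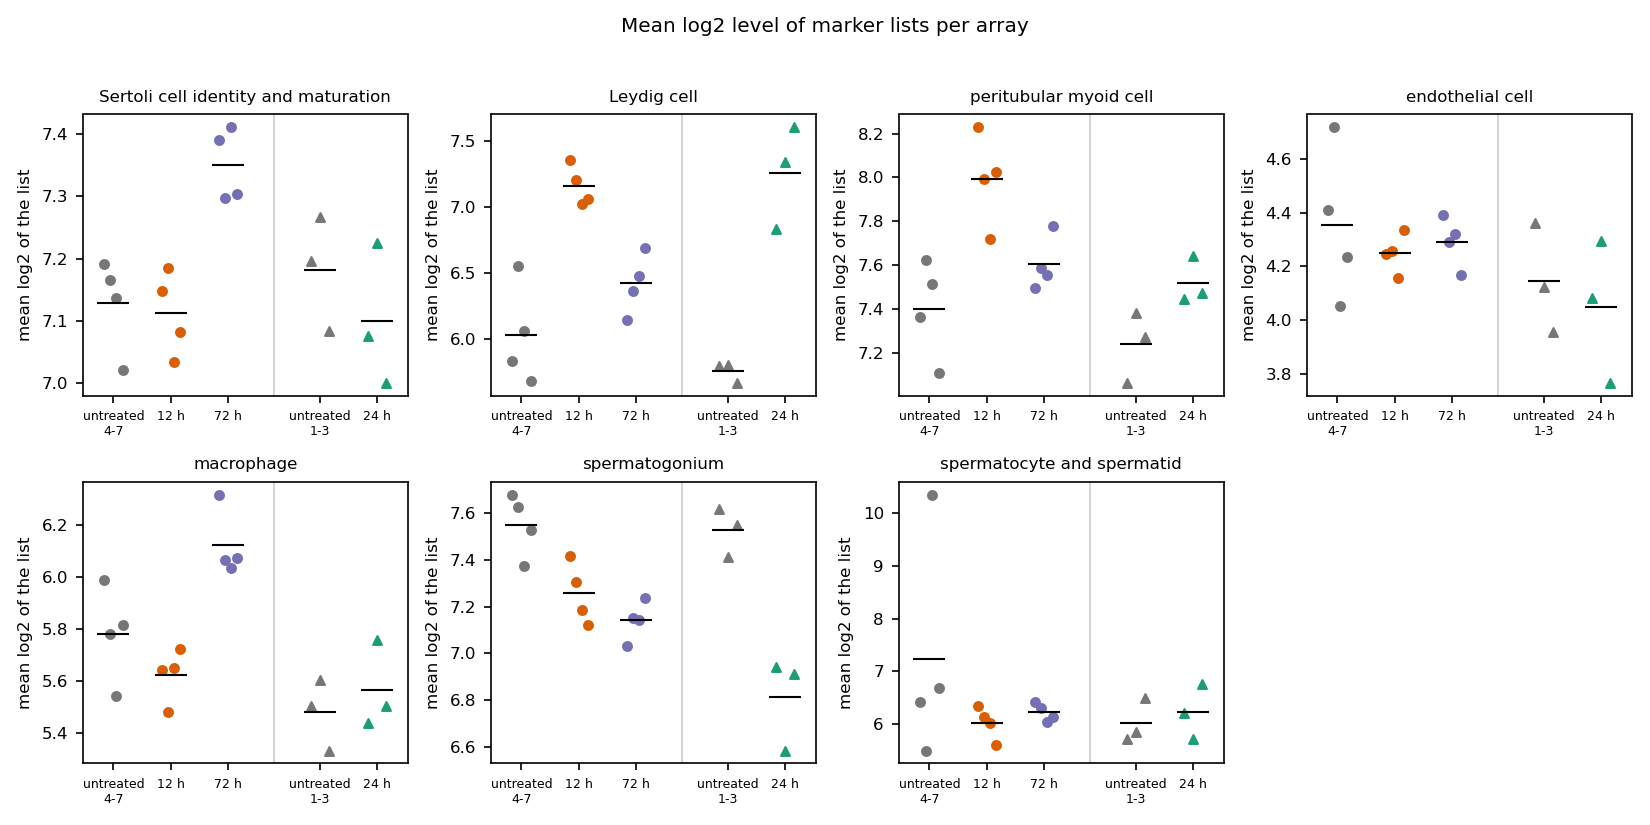
Mean log2 signal of the marker genes of 7 cell types on every array, laid out as untreated mice 4 to 7, 12 h and 72 h on the left and untreated mice 1 to 3 and 24 h on the right of each panel; points are mice and lines are group means. The Leydig and myoid cell points of every mouse lie above the untreated range of their set at 12 and 24 h. Those of macrophages and Sertoli cells all lie above it at 72 h. Spermatogonial points all lie below it at 24 and 72 h, and at 12 h they overlap it (7.12 to 7.42 against 7.37 to 7.68). Untreated mouse 6 is alone at 10.3 in the spermatocyte and spermatid panel. The median change of the 26 Sertoli cell genes at 72 h was -0.02. Their mean includes Rhox5 (group means 4.15 untreated and 8.42 at 72 h) and Tsx (8.61 and 10.9).

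Some macrophage markers were called higher at 72 h, when Shbg, Lgals1 and Hopx were too. Of 9 such markers, 1 was called lower at 12 h, 1 higher and 1 lower at 24 h, and 2 higher and 0 lower at 72 h. Their mean log2 signal was 6.03 to 6.31 at 72 h and 5.54 to 5.99 in untreated mice 4 to 7, without overlap, and the part of macrophages in the 72 h values was not tested. Cd68, a lysosomal protein of macrophages, rose by 1.34 at 72 h (limma adjusted p = 0.000583), when the summed level of the list was 10.2 to 10.6 against 9.54 to 10.2 in untreated mice 4 to 7. Of 10 endothelial markers, 1, Vwf, was called lower, at 12 h (-0.63, 0.0475). Of 10 spermatocyte and spermatid markers, 1, Dmc1, was called lower, also at 12 h (-0.58, 0.0267). Of 4 measured epididymal markers, all dim, Adam28 was called higher at 24 h, by 0.18 (0.0352), and the 3 measured red blood cell genes were dim, with 0 called and 0 at p below 0.05 without adjustment.

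Hopx encodes a small homeodomain protein that does not bind DNA itself and works through partner proteins. RefSeq gave 2 windows for it, both shown because Hopx was called at all 3 times.
Hopx promoter 1, chr5:77115124-77115373, minus strand: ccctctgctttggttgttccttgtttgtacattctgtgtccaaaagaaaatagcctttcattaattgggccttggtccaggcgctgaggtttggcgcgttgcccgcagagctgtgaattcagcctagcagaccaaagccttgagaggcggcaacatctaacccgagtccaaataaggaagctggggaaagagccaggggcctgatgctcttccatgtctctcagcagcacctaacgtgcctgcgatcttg
Hopx promoter 2, chr5:77095268-77095517, minus strand: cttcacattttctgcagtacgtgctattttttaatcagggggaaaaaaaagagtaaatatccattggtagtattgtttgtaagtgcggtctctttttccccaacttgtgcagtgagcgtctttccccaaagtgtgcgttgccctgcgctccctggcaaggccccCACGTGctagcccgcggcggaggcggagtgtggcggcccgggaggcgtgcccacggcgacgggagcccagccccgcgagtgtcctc
The printed part of window 1 held none of the 4 motifs, and that of window 2 held 1 E box, CACGTG, at 86 to 81 bases before the start. Each window had 1 further E box after the start.

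On 1428662_a_at, untreated mice 4 to 7 had Hopx signals of 8.10, 8.13, 7.85 and 8.09, the 12 h mice 9.50, 9.54, 9.38 and 9.65, and the 72 h mice 9.30, 9.66, 9.34 and 9.51. Untreated mice 1 to 3 had 7.86, 8.42 and 7.97 and the 24 h mice 8.99, 9.54 and 9.0. Treated and untreated mice did not overlap in either set, and the 12 h and 72 h mice covered the same range. The rise was 1.48 ± 0.14 at 12 h (2.78-fold, limma adjusted p = 1.57e-05, n = 4 and 4), 1.09 ± 0.16 at 24 h (2.13-fold, 0.000581, n = 3 and 3) and 1.41 ± 0.14 at 72 h (2.66-fold, 2.95e-05, n = 4 and 4). In the fit of the 24 h and untreated 1 to 3 arrays alone, the 24 h difference of 1.09 was not called (limma adjusted p = 0.0956). The level at 72 h differed from that at 12 h by -0.07 ± 0.14 (95% interval -0.36 to 0.23, adjusted p = 0.961). The second probe set, 1451776_s_at, rose by 1.44, 0.88 and 1.49, and the signals of both correlated at r = 0.96.

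The genes most like Hopx over the 18 arrays were Xpnpep1 (r = 0.98), an aminopeptidase, Inha (0.96), the inhibin alpha subunit that Sertoli cells secrete in response to FSH, and Pvr (0.96), a cell adhesion receptor. Inha rose by 1.87 ± 0.11, 1.75 ± 0.13 and 1.94 ± 0.11 at 12, 24 and 72 h (limma adjusted p = 6.6e-07, 2.48e-06 and 3.79e-07). Lgals1 and Hopx themselves correlated at r = 0.89, and Gdnf and Hopx at -0.76, over the same arrays.

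Plat encodes tissue plasminogen activator, a secreted protease that turns plasminogen into plasmin and takes part in the remodelling of the tubule. Untreated mice 4 to 7 had 6.63, 7.19, 6.50 and 6.43, the 12 h mice 7.12, 7.78, 6.56 and 6.86, and the 72 h mice 6.46, 7.13, 7.32 and 7.58. Untreated mice 1 to 3 had 5.75, 6.32 and 6.13 and the 24 h mice 6.49, 7.38 and 7.49. The groups overlapped at 12 and 72 h, and at 24 h every treated value was above every untreated one. The differences were 0.39 ± 0.30 at 12 h (95% interval -0.26 to 1.04, limma adjusted p = 0.687) and 0.43 ± 0.30 at 72 h (-0.22 to 1.08, 0.595). At 24 h the difference was 1.05 ± 0.35 (0.30 to 1.80, adjusted p = 0.0607, n = 3 and 3), which was not called. With the replicate number of these 6 arrays as a block it was called (adjusted p = 0.0385), and without the 24 h mouse 1 it was 1.37 (0.0200).

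Of 13 genes of plasminogen activation, 11 were measured and 4 of these were at the floor. At 12 h 2 were called higher and 2 lower, at 24 h 2 and 2, and at 72 h 2 and 0. The genes called higher at each time encode the partners of the plasminogen-binding annexin A2 complex: S100a10 rose by 1.14, 0.65 and 0.78 (limma adjusted p = 0.000642, 0.037 and 0.0101) and Anxa2 by 0.46, 0.57 and 0.45 (0.00719, 0.00299 and 0.00805). Mmp2, a matrix protease, fell by 1.20 and 1.41 at 12 and 24 h (0.00663 and 0.00404), and Serpina5, the protein C inhibitor that also inhibits plasminogen activators, fell by 1.12 and 1.48 (0.0457 and 0.0131). At 72 h these differences were -0.82 (0.0578) and 0.09 (0.942). Plau, the urokinase-type activator, lay between 2.55 and 4.51 and was not called at any time.

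Krt18 encodes a simple epithelial keratin that marks immature Sertoli cells. Its signals were dim: untreated mice 4 to 7 had 2.72, 2.95, 2.71 and 2.74, the 12 h mice 2.74, 2.79, 2.66 and 3.41, the 72 h mice 2.72, 2.75, 2.60 and 2.67, untreated mice 1 to 3 3.05, 2.97 and 2.75, and the 24 h mice 2.74, 2.75 and 2.75. All groups overlapped. The differences of 0.12 ± 0.13, -0.17 ± 0.15 and -0.10 ± 0.13 were not called (limma adjusted p = 0.894, 0.432 and 0.898), and their 95% intervals ran from -0.16 to 0.39, -0.49 to 0.14 and -0.37 to 0.18. Of 9 other keratins and intermediate filament genes, 6 were dim. Krt20 fell at each time, by 1.52, 1.80 and 1.37 (0.00129, 0.000835 and 0.00277). Lmna, a nuclear lamin, rose by 1.28 and 1.34 at the first 2 times (0.00151 and 0.0023). Vim, an intermediate filament protein that Sertoli cells keep throughout life, rose by 0.52 at 12 h (0.0431). Vim was not called at 24 h (group means 12.2 against 11.9 untreated) or at 72 h (11.9 against 11.4). It passed p below 0.05 in limma without adjustment at both of these times, as did Lmna at 72 h.

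Aard encodes an alanine- and arginine-rich protein of Sertoli cells whose function is not well known. Untreated mice 4 to 7 had 13.02, 13.08, 12.79 and 12.79, the 12 h mice 13.14, 13.42, 13.39 and 13.39, and the 72 h mice 12.91, 12.92, 13.13 and 13.15. Untreated mice 1 to 3 had 13.52, 13.01 and 13.40 and the 24 h mice 13.37, 13.21 and 13.14. The 12 h values lay above all untreated values of their set, and the 72 h and 24 h values overlapped theirs. Aard rose by 0.41 ± 0.11 at 12 h, or 1.33-fold (limma adjusted p = 0.0467, n = 4 and 4). The call was lost in 14 of the 18 fits that left out 1 array, with adjusted p up to 0.136, and without untreated mouse 6 the difference was 0.37 (adjusted p = 0.122). At 24 and 72 h the differences were -0.08 ± 0.13 and 0.11 ± 0.11 (0.715 and 0.837). Its most similar signals were those of Snx6 (r = 0.91), Mdh2 (0.90) and Vdac3 (0.88). Of these, Snx6 and Mdh2 were not called at any time, and Vdac3 was called higher at 12 h (limma adjusted p = 0.0204).

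**Figure D3:**
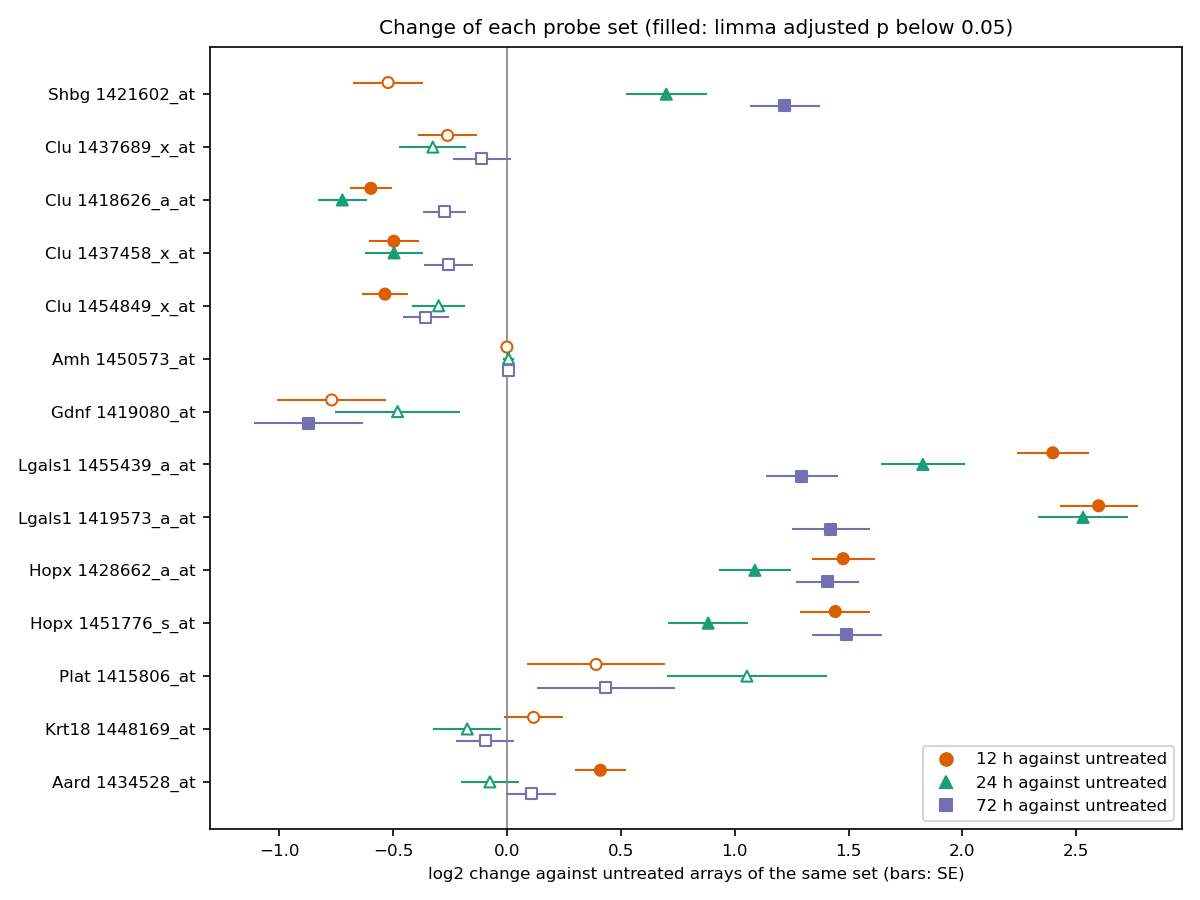
Log2 change of all 14 probe sets at 12, 24 and 72 h against untreated mice of the same array set, with bars of 1 SE; filled symbols have a limma adjusted p below 0.05. Both Lgals1 and both Hopx probe sets are filled at all 3 times, and of the 4 Clu probe sets 3 are filled at 12 h and 2 at 24 h, to the left of 0.

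Other secreted products of Sertoli cells were looked at as a list of 30 genes, of which 28 were measured. At 12 h 5 were called higher and 5 lower, at 24 h 5 and 5, and at 72 h 8 and 2, with median changes of -0.23, 0.04 and 0.24. Inha, given above, was called higher at all times, and so was Wif1, a secreted inhibitor of Wnt signalling, at 3.59 ± 0.23, 1.43 ± 0.26 and 1.73 ± 0.23 (limma adjusted p = 6.6e-07, 0.00259 and 0.000291). Igf1, insulin-like growth factor 1, had 0.67 at 12 h (0.115) and rose by 2.27 ± 0.26 and 1.74 ± 0.22 at 24 and 72 h (7.58e-05 and 0.000283). Lgals1 and Wif1 were both lower at 72 h than at 12 h, Wif1 by 1.85 ± 0.23 (0.00054), whereas Shbg and Eppin were higher, Eppin by 4.06 ± 0.34.

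**Figure D4:**
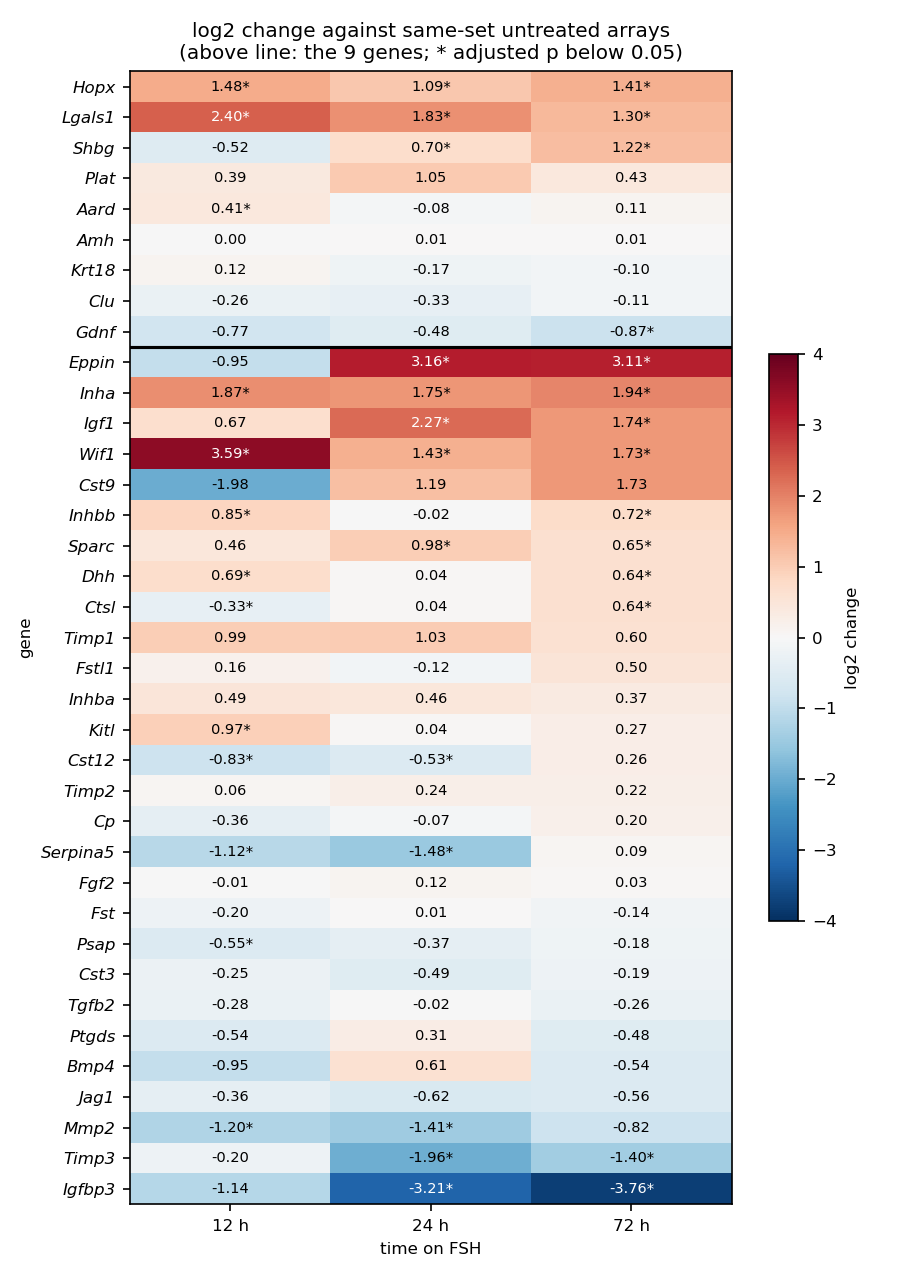
Log2 change of the 9 genes (above the line) and of the 28 other measured Sertoli cell secreted products (below it) at 12, 24 and 72 h against untreated mice of the same array set; red is higher, blue is lower, and an asterisk marks a limma adjusted p below 0.05. Lgals1, Hopx, Inha and Wif1 are called higher at all 3 times, and Shbg, Eppin and Igf1 at 24 and 72 h.

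The Sertoli cell identity and maturation genes changed in both directions. Of 26 measured, 3 were called higher and 3 lower at 12 h. The counts were 2 higher and 6 lower at 24 h, and 3 higher and 1 lower at 72 h, with median changes of -0.23 and -0.02. Their summed level was 13.6 to 13.8 in untreated mice 4 to 7, 13.7 to 13.9 at 12 h and 14.0 to 14.1 at 72 h, and 13.7 to 14.0 both in untreated mice 1 to 3 and at 24 h. Rhox5, a homeobox gene that Sertoli cells express from the X chromosome, had a difference of -0.82 ± 0.41 at 12 h (limma adjusted p = 0.38), and rises of 4.13 ± 0.48 and 4.27 ± 0.41 at the later times (8e-05 and 2.47e-05). Tsx, a testis-specific X-linked gene of Sertoli cells, had -0.88 and 0.86 at 12 and 24 h (0.16 and 0.133) and rose by 2.33 ± 0.32 at 72 h (0.000492). Fshr, the FSH receptor itself, fell by 1.10 ± 0.20, 1.24 ± 0.23 and 1.11 ± 0.20 at the 3 times (0.00327, 0.00274 and 0.0031). Cdkn1b, a cell cycle inhibitor of differentiated Sertoli cells, fell by 0.77 at 12 h and 1.65 at 24 h (0.0212 and 0.00018).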

How the data were processed

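Whole-testis RNA of 18 hpg mice was measured on Affymetrix MOE430A arrays, 1 per mouse, from 8 µg of RNA per the labels' protocols. The authors deposited 1 table of values per probe set, taken here as log2 from their range (1.04 to 14.8), since no scale is stated. RMA and GCRMA, which adjust for background, bring arrays to a common scale and summarise each probe set, are both named in the submitters' processing notes. Which of them gave these values is not given in the sources used here, nor is a version. Of 22690 probe sets, 64 array controls were left out.

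The platform annotation gave 1 symbol to 20380 tested probe sets, several to 691 and none to 1555. Each probe set was fitted in R 4.3.3 with limma 3.58.1 (lmFit, eBayes, two-sided), with a mean per group and the array set (spiked or unspiked, read from the Dap controls) as a block, without a filter on low values. Benjamini-Hochberg adjustment of the p-values ran over 22626 probe sets. Fold changes are differences of log2 means and understate changes near the floor. The script was tested on simulated data. Precision is limited by the number of arrays.

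A gene's brightest probe set (highest mean over 18 arrays) stands for it. The text names every member, up to 4 called genes per list with the smallest p, and for each called member the 3 genes with the highest Pearson r. The Sertoli identity genes given with their ranges, Gfra1, Ret, Plau and the genes in the closing section were named after their values were seen. The members, lists and tests were chosen with earlier results of these data known.

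Among the 24 h and untreated 1 to 3 arrays, same-numbered arrays deviated together from their group means (r = 0.18, 0.34 and 0.41 over probe sets). The labels name no pairing. Arrays of different numbers were not compared, so these values do not show that the arrays were paired. The main fit leaves the replicate number out. For 12 h and 72 h the correlations were 0.11, 0.13, 0.01 and 0.07. Alternatives were no array set block, fits within each array set alone, quantile normalisation, a filter at the median signal, eBayes with trend and robust, the mean over a gene's probe sets, replicate blocks and leaving out each array in turn.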

Additional observations from a re-analysis of the deposited data

Results flagged for a closer look

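In groups of 4 mice, 1 array lay far from the other 3 in 5 of 27 groups tested over the 9 genes, by Dixon's criterion on the gap over the range, where chance gives about 1 in 20. Untreated mouse 5 had an Lgals1 signal of 11.33, with the other untreated mice of its set at 10.77 to 10.86. Untreated mouse 6, the one with spermatid transcripts, had a Hopx signal of 7.85, with the others at 8.09 to 8.13. Krt18 was 2.95 in untreated mouse 5 (others 2.71 to 2.74) and 3.41 in the 12 h mouse 4 (others 2.66 to 2.79), both on a dim probe set. Aard was 13.14 in the 12 h mouse 1, with the others at 13.39 to 13.42.

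Treated groups differed between times by the contrast itself in 3 cases. Shbg was higher at 72 h than at 12 h by 1.74 (limma adjusted p = 3.96e-05), and its change at 24 h exceeded that at 12 h by 1.22 (0.0262). This 24 h contrast crosses the array sets, and its call was lost in 6 of the 18 fits that left out 1 array. Lgals1 at 72 h differed from 12 h by -1.10 (0.0020).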

How the results depend on the processing

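The number of the 9 genes called in each comparison was set against its value under each alternative other than leaving out an array. It stayed equal, or within 1.5 times its value, in 42 of these 46 pairings of an alternative with a comparison. At 24 h it was 1 (Lgals1) instead of 3 in the fit of the unspiked arrays alone. At 72 h it was 1 (Hopx) instead of 4 with the replicate block over all arrays. For 24 h against 12 h it was 0 instead of 1 with that replicate block (Shbg 1.47, limma adjusted p = 0.141), and for 72 h against 24 h it was 3 (Shbg, Clu and Lgals1) instead of 0 without the array set block. Leaving out 1 array gave 2 to 4 called at 12 h, 2 to 4 at 24 h, 3 to 4 at 72 h, 2 for 72 h against 12 h, 0 to 1 for 24 h against 12 h and 0 for 72 h against 24 h. The replicate block of the unspiked arrays, chosen after seeing the data, called Plat at 24 h (1.05, adjusted p = 0.0385) and changed no other call. Among single genes, Shbg at 24 h was lost without the array set block (0.45, 0.0587) and in the unspiked arrays alone (0.0768), as was Hopx there (0.0956), while Shbg at 12 h was called with the filter on low signals (0.0436) and Plat at 24 h with it (0.0331). Clu at 24 h was called without the array set block (-0.52, 0.0142), with quantile normalisation (-0.30, 0.0184) and with the replicate block over all arrays (-0.33, 0.0373). Without the array set block Aard at 12 h (0.24, 0.341) and Gdnf at 72 h (-0.69, 0.0725) were lost and Gdnf at 24 h was gained (-0.72, 0.0340). Over all 22626 probe sets, the 24 h calls moved from 1381 higher and 1642 lower to 152 and 241 in the unspiked arrays alone. They moved to 5283 and 2854 without the array set block. With the filter, which left 11313 probe sets, 741 were called higher and 1694 lower. With the replicate block over all arrays, calls were 100 higher and 155 lower at 12 h and 93 and 151 at 72 h, from 723 and 488, and 822 and 566. In that fit untreated mice 5, 6 and 7 each had a replicate number of their own, and so carried no weight in the comparisons. The causes were not tested. No called value changed sign. Amh, Gdnf and Krt18 were limited by signals near the lower end of the scale.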

Other observations

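Single genes among the other secreted products of Sertoli cells are given here, chosen after their values were seen. Igfbp3, a carrier of insulin-like growth factors, had -1.14 ± 0.44 at 12 h (log2 ± SE, limma adjusted p = 0.186) and fell by 3.21 ± 0.50 at 24 h and 3.76 ± 0.44 at 72 h. Timp3, an inhibitor of matrix proteases, had -0.20 ± 0.23 at 12 h (adjusted p = 0.909) and fell by 1.96 ± 0.26 and 1.40 ± 0.23 at 24 and 72 h. Ctsl, the protease cathepsin L, fell by 0.33 ± 0.08 at 12 h and rose by 0.64 ± 0.08 at 72 h, and Cst12, a cystatin, fell by 0.83 ± 0.14 at 12 h and by 0.53 ± 0.16 at 24 h and had 0.26 ± 0.14 at 72 h (adjusted p = 0.416).

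Kitl, the ligand of the Kit receptor on spermatogonia, rose by 0.97 ± 0.16 at 12 h (limma adjusted p = 0.0017) and was lower at 72 h than at 12 h by 0.70 ± 0.16 (adjusted p = 0.0307). Inhbb, the inhibin beta B subunit, had -0.02 ± 0.20 at 24 h, and rose by 0.85 ± 0.17 and 0.72 ± 0.17 at 12 and 72 h. Dhh, a signal to Leydig and myoid cells, had 0.04 ± 0.17 at 24 h, and rose by 0.69 ± 0.15 and 0.64 ± 0.15 at 12 and 72 h. For these 3 genes, 24 h against 12 h was not called (limma adjusted p = 0.088, 0.136 and 0.199 for Kitl, Inhbb and Dhh), and the 24 h mice are in the other array set.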
